A study of Mus musculus with 2 samples.

Results

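The 33 genes described here are 23 immediate early genes and 10 heat shock genes, taken by symbol from the 31053 genes of 2 single-cell RNA libraries of mouse skin wounds. They were chosen as a list of stress response genes, and it was asked whether their levels differed between cell classes or between the libraries. Both libraries came from wound tissue of the back skin of C57BL/6 *Mrc1-DTR* mice, 7 to 9 weeks old, at day 5 after wounding. Per the labels, one library came from mice given PBS and the other from mice given diphtheria toxin (DTX). In all of these mice the promoter of *Mrc1*, which encodes the mannose receptor CD206, drives a receptor for the toxin, and cells in which it is active die when toxin is given. The methods describe the controls differently, as wild-type mice given the toxin, and the groups are named here as in the labels. The paper's text also gives the cell numbers of the libraries the other way round, so the direction of every ratio rests on the labels. Tissue from pooled mice was digested with Liberase for 1 h and 20 min at 37 °C, and live cells (7AAD-negative) were sorted before capture in droplets. Each condition has 1 library, so mouse, digestion, sorting and capture cannot be told apart from the treatment, no test between conditions was possible, and the 95% intervals given cover counting error only.

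Immediate early genes are transcribed within minutes of a stimulus without new protein synthesis, from promoters and enhancers bound by factors such as SRF, CREB and their partners. Many encode transcription factors (FOS, JUN, EGR and KLF proteins) and others encode proteins that end the response, such as the MAP kinase phosphatase DUSP1 and the mRNA decay factor ZFP36. Heat shock genes encode chaperones, and a part of them is induced by HSF1, which binds heat shock elements in their promoters. Both groups respond in wounded skin, and both also respond to the enzymatic digestion used to release cells from tissue.

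Promoter windows of most heat shock genes held letters of the heat shock element, the motif read by HSF1, and 3 of these sequences are shown, *Hspa1a* and *Hspa1b* because they differed between libraries in opposite directions in different classes, and *Hspe1* because it carries the 3-unit form of the element. Promoter windows from 250 bases before to 50 bases after the start were available from RefSeq (GRCm38.p6) for 28 of the 33 members, 20 immediate early and 8 heat shock genes. The element was searched on both strands as 2 units, GAANNTTC or TTCNNGAA, and as 3 units, GAANNTTC continued by NNGAA, which contains the shorter form. The 150 bases before the start are printed, read 5′ to 3′ on the strand of the gene, with the matched bases in capitals. *Hspa1a* lies at chr17:34972157-34972306 on the minus strand, *Hspa1b* at chr17:34959239-34959388 on the minus strand, and *Hspe1* at chr1:55087998-55088147 on the plus strand.
Hspa1a: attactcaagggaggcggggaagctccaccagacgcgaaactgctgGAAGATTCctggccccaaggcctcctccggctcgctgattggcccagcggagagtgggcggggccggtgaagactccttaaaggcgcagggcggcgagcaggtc
Hspa1b: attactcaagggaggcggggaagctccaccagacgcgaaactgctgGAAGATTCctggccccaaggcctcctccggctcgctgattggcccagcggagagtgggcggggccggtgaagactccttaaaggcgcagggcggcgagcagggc
Hspe1: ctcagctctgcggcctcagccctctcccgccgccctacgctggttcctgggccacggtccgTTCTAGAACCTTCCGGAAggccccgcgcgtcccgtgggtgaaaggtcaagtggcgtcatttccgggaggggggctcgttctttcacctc

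The stretches of *Hspa1a* and *Hspa1b*, neighbouring genes of the inducible HSP70, differed at 1 of the 150 printed bases. A 2-unit element was found in the windows of 7 of 8 heat shock genes (*Hspa1a*, *Hspa1b*, *Hsph1*, *Dnaja1*, *Hspb1*, *Hspe1* and *Hspd1*) and of 2 of 20 immediate early genes (*Jun* and *Egr2*), beside 17.0% of all 27025 genes with a window. The 3-unit element was found for *Hsph1*, *Hspe1* and *Hspd1* and for no immediate early gene, beside 0.662% of all genes. *Hspe1* and *Hspd1*, which encode the mitochondrial chaperonin HSP10 and HSP60, face away from each other and share this element. Among the immediate early genes, the CArG box of SRF was found for *Egr2* and *Zfp36* (1.81% of all genes) and the cAMP response element TGACGTCA for *Dusp1*, *Btg2* and *Ppp1r15a* (2.03% of all genes). The AP-1 site TGANTCA was found for none of the 20, beside 8.97% of all genes. A match is a description of the letters and not a site of binding.

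After filtering and removal of putative doublets, 7944 cells of the PBS library (81235634 UMIs) and 6613 cells of the DTX library (54872675 UMIs) were kept. A UMI (unique molecular identifier) marks 1 captured RNA molecule, and levels are given in CPM, the UMIs of a gene scaled to the same total in every class and library, counted at the 3′ end and so not scaled by gene length. Clusters made without the 33 genes were named from markers, and 9 classes had at least 20 cells in each library. The libraries differed in their makeup: macrophage-like cells were 1827 in PBS and 4512 in DTX, fibroblast-like cells 3066 and 657, epithelial-like cells 2066 and 235, dendritic-like cells 335 and 366, neutrophil-like cells 128 and 459, NK or T-like cells 225 and 151, pericyte-like cells 61 and 112, Langerhans-like cells 122 and 38, and endothelial-like cells 73 and 54. The level of *Mrc1* in macrophage-like cells was 490 CPM in PBS and 433 CPM in DTX (log2 ratio -0.18), so that the cells kept from the DTX library still held its RNA. The macrophage-like class joins cluster 0, led by *C1qb*, *C1qa* and *C1qc*, with 1754 cells in PBS and 2279 in DTX, and cluster 2, led by *Chil3*, *Arg1* and *Clec4d*, with 73 and 2233. Cluster 2 had 9 of 9 macrophage markers raised but came almost wholly from 1 library, so that cell type and library cannot be told apart for it.

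By their sum, immediate early genes ranged more widely over the 9 classes than they differed between the libraries within a class. Their summed level was highest in neutrophil-like cells (12482 CPM in PBS, 12926 in DTX), followed by fibroblast-like cells (9706 and 9111), and lowest in Langerhans-like cells (4485 and 3964). The highest class exceeded the lowest 2.78-fold in PBS and 3.26-fold in DTX. Within a class the libraries differed by no more than a log2 ratio of -0.32, in pericyte-like cells. The former is an extreme over 9 classes and the latter compares 1 pair of libraries. Genes with opposite ratios also offset each other in a sum, and single genes differed by more, such as *Egr3* at -1.40 in macrophage-like cells. Macrophage-like cells stood at 6186 CPM in PBS and 6113 CPM in DTX. The order of the 9 classes was alike in the libraries (Spearman rho 0.95, over classes that share a library).

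Heat shock genes were also ordered by class, but with larger differences between libraries. Their sum was highest in fibroblast-like cells (7716 CPM in PBS, 9361 in DTX) and lowest in neutrophil-like cells (2723 and 2084), a 2.83-fold and 4.49-fold range, with a rho between the libraries of 0.80. Neutrophil-like cells thus had the highest immediate early and the lowest heat shock sum in both libraries. *Hspa8*, the constitutive HSC70 chaperone, gave the most heat shock UMIs in every class but the epithelial-like, for example 49.3% in PBS and 53.7% in DTX in macrophage-like cells. In epithelial-like cells *Hspb1*, which encodes the small heat shock protein HSP27, gave 34.6% and 35.2%.

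**Figure D1:**
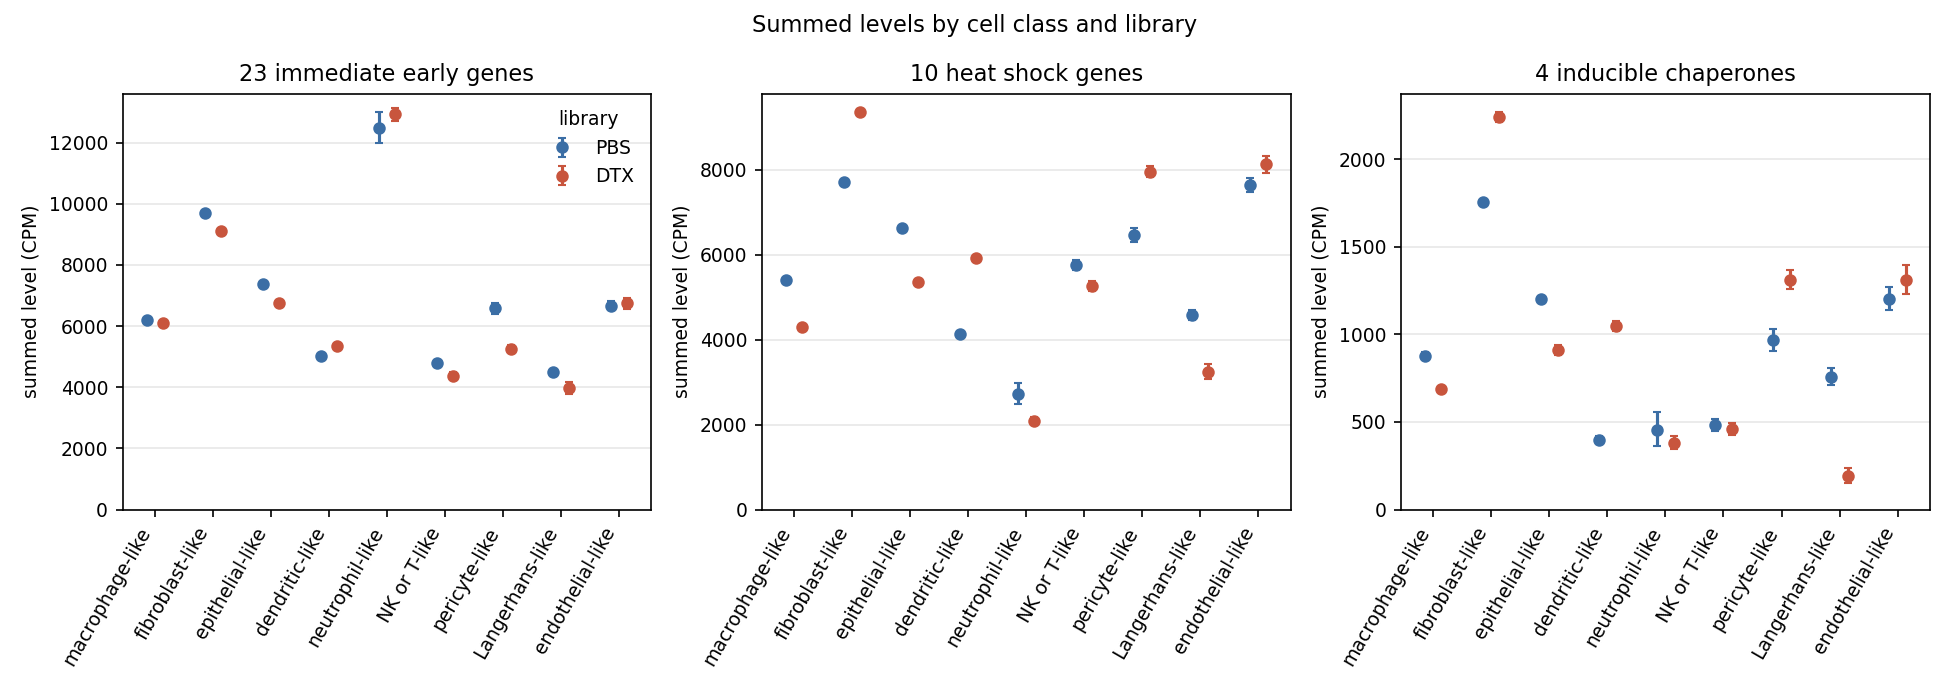
Summed levels (CPM, linear axes from 0) of the immediate early and the heat shock genes in 9 cell classes, as points for the PBS and the DTX library with exact Poisson 95% intervals. Neutrophil-like cells stand highest for the immediate early genes, at 12482 and 12926 CPM, and lowest for the heat shock genes, at 2723 and 2084 CPM.

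The immediate early genes did not share 1 pattern over classes. Each was compared with the median of the other classes and counted where it was at least 2-fold higher, or lower, in both libraries. In fibroblast-like cells 9 of 23 were higher (*Fos*, *Fosb*, *Egr1*, *Nr4a1*, *Nr4a2*, *Klf2*, *Klf4*, *Ier3* and *Dusp1*), beside 16.5% of 12488 genes, and 1 was lower (*Dusp2*, beside 7.69%). *Egr1*, a zinc finger factor of growth factor signalling, had 802 CPM in PBS and 712 CPM in DTX in these cells, against 51.5 and 48.2 CPM in dendritic-like cells, the lowest class. In neutrophil-like cells 7 were higher (*Klf2*, *Klf6*, *Ier3*, *Ier5*, *Dusp1*, *Gadd45b* and *Ppp1r15a*), beside 9.71% of genes, and none was lower, beside 22.5%. *Klf2*, a factor of quiescence in leukocytes and endothelium, had 766 and 824 CPM in neutrophil-like cells and 7.14 and 18.8 CPM in Langerhans-like cells.

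Epithelial-like cells had 4 immediate early genes higher (*Egr1*, *Egr2*, *Egr3* and *Klf4*, beside 12.0% of genes) and 4 lower (*Jund*, *Nr4a2*, *Klf2* and *Dusp2*, beside 16.1%). *Klf4*, which acts in the differentiation of the epidermis, was at 496 CPM in PBS and 560 CPM in DTX there. *Egr3* was at 271 and 236 CPM in epithelial-like cells, against 10.9 and 3.49 CPM in macrophage-like cells. Macrophage-like cells had no member higher, beside 9.18% of genes, and 2 immediate early genes lower (*Egr1* and *Egr3*), a share near the 10.3% of all genes. In NK or T-like cells 5 were lower (*Jun*, *Atf3*, *Egr1*, *Egr3* and *Ier3*, beside 8.55%). The 1 higher, beside 17.3% of genes, was *Dusp2*, a phosphatase induced in activated lymphocytes, at 143 and 277 CPM, against 1.63 and 2.37 CPM in fibroblast-like cells. Langerhans-like cells had 8 lower (*Egr2*, *Egr3*, *Nr4a1*, *Klf2*, *Ier2*, *Ier3*, *Ier5* and *Dusp1*, beside 9.20%) and 1 higher (*Dusp2*, beside 7.91%). Dendritic-like cells had 1 higher (*Nr4a2*, beside 8.62%) and 3 lower (*Egr1*, *Egr3* and *Ier3*, beside 6.15%). Pericyte-like cells had *Egr2* and *Egr3* higher, beside 15.8% of genes, and endothelial-like cells *Egr3* and *Ier3*, beside 16.1%. None was lower in either class. The share of all genes lower there is not given, so this is not read as particular to the members. *Junb*, an AP-1 subunit, was among the most even members, with a 2.44-fold range over classes in PBS and 4.31-fold in DTX.

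Among the heat shock genes, *Hspb1* had the widest range over classes. It had 2289 CPM in PBS and 1885 CPM in DTX in epithelial-like cells, 1119 and 1199 in pericyte-like cells, 657 and 976 in endothelial-like cells and 502 and 816 in fibroblast-like cells, while macrophage-like cells had 49.0 and 34.3 CPM. The 4 inducible chaperones *Hspa1a*, *Hspa1b*, *Hsph1* (HSP110) and *Dnajb1* (HSP40) were all at least 2-fold higher in fibroblast-like cells in both libraries, as was *Hspb1*. These were 5 of 10, beside 16.5% of genes, and none was lower there, beside 7.69%. Here *Hspa1a* had 635 CPM in PBS and 804 CPM in DTX, and *Hspa1b* 594 and 794 CPM. Neutrophil-like cells had 4 heat shock genes lower (*Hspa1a*, *Hspa8*, *Hspe1* and *Hspd1*), beside 22.5% of genes, and none higher, beside 9.71%. In NK or T-like cells 3 were lower (*Hspa1a*, *Hspa1b* and *Hspb1*, beside 8.55%), and in Langerhans-like cells 2 (*Dnajb1* and *Hspb1*, beside 9.20%). *Hspb1* alone was lower in macrophage-like cells, near the 10.3% of all genes, and in dendritic-like cells, beside 6.15%. None was higher in these 4 classes. The shares of all genes higher were 17.3% in NK or T-like, 7.91% in Langerhans-like, 9.18% in macrophage-like and 8.62% in dendritic-like cells. *Dnajb1* and *Hspb1* were higher in epithelial-like and pericyte-like cells, beside 12.0% and 15.8% of genes. *Hspb1* was higher in endothelial-like cells, 1 of 10, a share below the 16.1% of all genes. None was lower in any of these classes, beside 16.1% of genes in epithelial-like cells. For pericyte-like and endothelial-like cells that share is not given, and nothing is read from it. *Dnaja1*, a further HSP40 protein, was the most even of the heat shock genes in PBS, with a 2.57-fold range, and *Hsp90aa1*, the inducible HSP90, had a 2.84-fold range there.

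**Figure D2:**
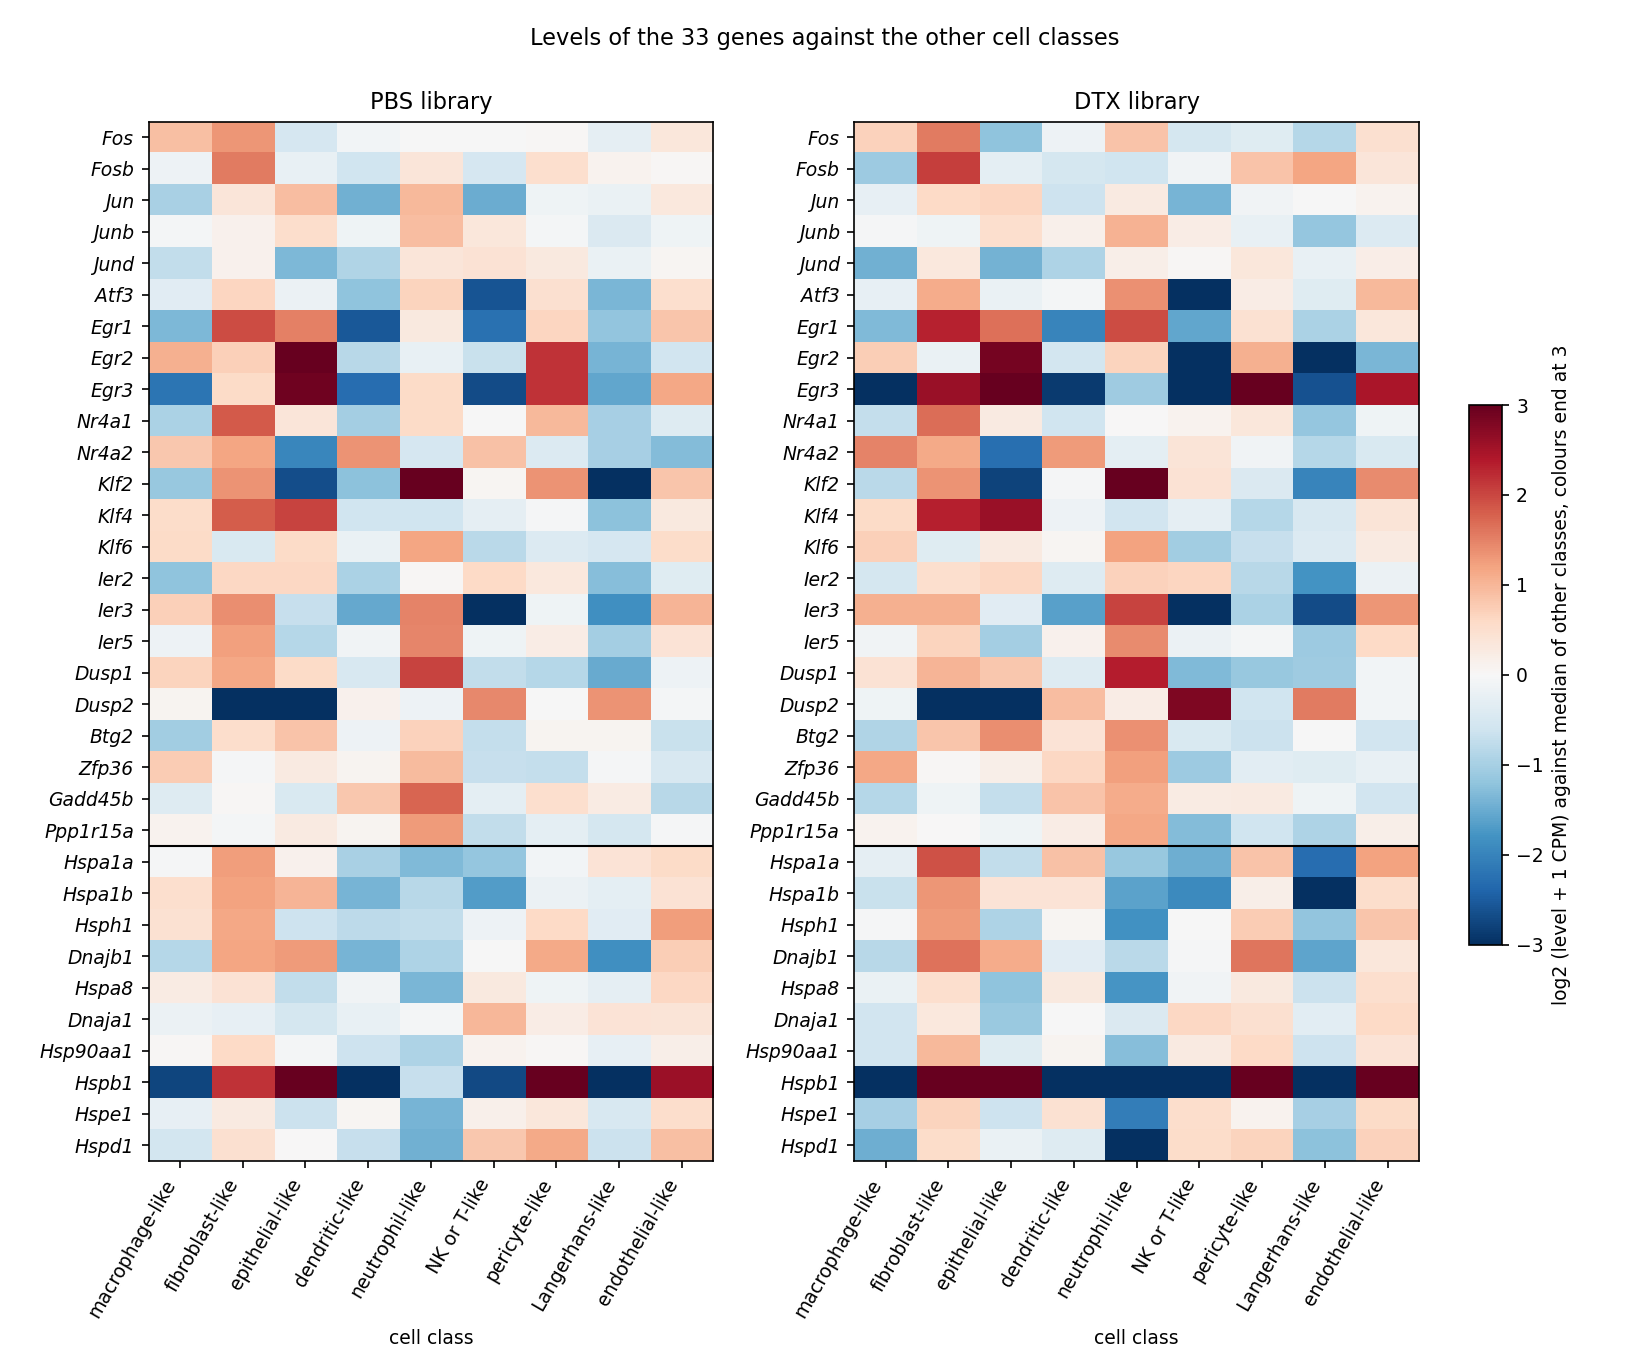
Heat maps of the 33 genes (rows) in 9 cell classes (columns), 1 for each library, with colour for the log2 difference of the level (CPM + 1) from the median of the other classes and colours ending at 3. In fibroblast-like cells 9 of 23 immediate early and 5 of 10 heat shock genes are at least 2-fold higher in both libraries, beside 16.5% of all genes. In neutrophil-like cells 7 of 23 immediate early genes are higher, beside 9.71%.

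Between the libraries, the immediate early genes of macrophage-like cells kept nearly the same sum (log2 ratio of DTX to PBS -0.02) but differed gene by gene. A gene was counted as higher or lower in DTX at 1.5-fold, among genes with at least 50 UMIs in the class. None of the 23 was higher, beside 6.22% of 10213 genes, and 5 were lower, beside 8.03%. The 5 were *Fosb*, *Atf3*, *Egr1*, *Egr3* and *Gadd45b*. *Fosb*, an AP-1 subunit, had 196 CPM in PBS and 83.2 CPM in DTX (log2 ratio -1.22, interval -1.32 to -1.15). *Gadd45b*, a regulator of growth arrest and p38 signalling, had 458 and 242 CPM (-0.92, -0.98 to -0.87). *Atf3*, a stress-induced repressor, had 170 and 91.2 CPM (-0.89), and *Egr1* 120 and 76.1 CPM (-0.65).

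Other AP-1 genes of macrophage-like cells went either way. *Fos* had 427 CPM in PBS and 341 CPM in DTX (-0.33, -0.38 to -0.27), *Jun* 187 and 265 CPM (0.50, 0.43 to 0.58), and *Junb* 643 and 660 CPM. The levels of *Nr4a2*, an orphan nuclear receptor, were 143 and 208 CPM (0.54), those of *Ier3*, which acts in cell survival, 909 and 1182 CPM (0.38), and those of *Klf6* 663 and 801 CPM (0.27). These ratios were under 1.5-fold. The median over the 23 genes was -0.11, beside 0.05 over all genes.

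The clusters of the class were also compared alone, each with its own share of all genes. Within cluster 0, 4 of 23 immediate early genes were lower in DTX by at least 1.5-fold, beside 5.11% of 9517 genes, namely *Fosb* (-0.59), *Atf3* (-0.61), *Egr3* (-1.24) and *Gadd45b* (-0.70). The 1 higher, beside 4.12%, was *Klf2*, with 34.7 CPM in PBS and 63.5 CPM in DTX (0.85). Within cluster 2, which rests on 73 cells in PBS, 4 of 22 were lower, beside 12.0% of 8415 genes, namely *Atf3* (-1.09), *Egr1* (-0.85), *Klf2* (-0.72) and *Gadd45b* (-0.66), and 3 were higher, a share below the 22.4% of all genes, namely *Nr4a1* (1.20), *Btg2* (1.03) and *Zfp36* (0.59). *Atf3* and *Gadd45b* were thus lower in both clusters, and *Klf2* lay on opposite sides, from 14 UMIs in cluster 2 in PBS. The summed immediate early level was 6224 and 6409 CPM in cluster 0 and 5274 and 5799 CPM in cluster 2.

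The heat shock sum of macrophage-like cells was lower in DTX, whereas its inducible part went the other way within the clusters of the class. It was 5391 CPM in PBS and 4301 CPM in DTX (-0.33, -0.34 to -0.31), with all 10 genes below 0 and a median of -0.49. *Hsp90aa1* (1050 and 691 CPM, -0.60) and *Hspe1* (227 and 149 CPM, -0.60) were lower by at least 1.5-fold, 2 of 10 beside 8.03% of genes. With at most 10% mitochondrial UMIs or in cluster 0 alone none of the 10 was lower by that much, and with doublets kept, at most 2000 genes or clustering on all variable genes 1 was. Of all genes 5.11% were lower in cluster 0, and the share under the other settings was not counted. The inducible chaperones had 877 and 686 CPM (-0.35) in the class. They had 902 and 982 CPM in cluster 0 (0.12) and 284 and 373 CPM in cluster 2 (0.39), so that the direction turned within both clusters. These ratios were not set against the median of all genes in each cluster. In cluster 2 more genes were at least 1.5-fold higher (22.4%) than lower (12.0%) in DTX. Cluster 2, which had the lower level, held 73 of the 1827 macrophage-like cells in PBS and 2233 of the 4512 in DTX. The whole heat shock sum was at -0.07 in cluster 0 and -0.21 in cluster 2. In cluster 2, 2 of 10 genes were higher (*Hspa1a* and *Hspa1b*), a share below the 22.4% of all genes. Another 2 were lower (*Hspb1* and *Hspe1*), beside 12.0%. With cells limited to at most 2000 genes, the upper limit given in the methods, the heat shock sum of macrophage-like cells was at 0.01. Under that limit the class kept only the cluster led by *C1qa*. The cluster led by *Arg1* and *Chil3*, with 77 cells in PBS and 1088 in DTX, was left unnamed and out of the class. The value is therefore not one of the same class under a gene limit.

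In fibroblast-like cells the immediate early sum was slightly lower and the heat shock sum higher in DTX. The immediate early sum was 9706 CPM in PBS and 9111 CPM in DTX (-0.09, -0.10 to -0.08). *Egr3* alone passed 1.5-fold, with 53.2 CPM in PBS and 84.6 CPM in DTX (0.66), beside 7.29% of 11814 genes higher, and none was lower, beside 3.98%. *Fos* (570 and 619 CPM), *Fosb* (603 and 642 CPM) and *Jun* (418 and 452 CPM) differed by a log2 ratio of at most 0.12. All 10 heat shock genes were above 0, with a median of 0.34, and *Hspb1* passed 1.5-fold (502 and 816 CPM, 0.70). The median of all genes in this class was itself at 0.12, and relative to it the immediate early sum was at -0.21 and the heat shock sum at 0.16, and neither *Egr3* nor *Hspb1* passed 1.5-fold (0.54 and 0.58). With at most 2000 genes per cell *Hspb1* was at -0.090, and with at most 10% mitochondrial UMIs the immediate early sum was at 0.0013.

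Both fibroblast-like clusters gave the same direction for the inducible chaperones. Cluster 1, led by *Ctsk*, had 1811 CPM in PBS and 2315 CPM in DTX (0.35), and cluster 4, led by *Mfap5* and *Sfrp2*, had 1656 and 2188 CPM (0.40). Cluster 1 held most of the class in PBS and cluster 4 in DTX. With cells limited to at most 2000 genes the heat shock sum turned to -0.61. That limit left 534 fibroblast-like cells in PBS and 62 in DTX, while the class medians were 2721 and 3150 genes.

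In epithelial-like cells both sums were lower in DTX by less than 1.5-fold. The immediate early sum was 7360 CPM in PBS and 6759 CPM in DTX (-0.12), and the heat shock sum 6617 and 5352 CPM (-0.31). Of 22 immediate early genes with enough UMIs none was higher (8.49% of genes) and 3 were lower (5.25%), namely *Atf3* (185 and 95.3 CPM, -0.95), *Gadd45b* (436 and 268 CPM, -0.70) and *Nr4a2* (28.1 and 17.3 CPM, -0.67). *Hspa1a* was the 1 of 10 heat shock genes past 1.5-fold (291 and 189 CPM, -0.62). Not all groups went this way: the IER genes (*Ier2*, *Ier3* and *Ier5*) had 939 CPM in PBS and 1072 CPM in DTX (0.19), and the mitochondrial chaperones (*Hspe1* and *Hspd1*) 314 and 369 CPM (0.23). In cluster 3, led by *Ifi202b* and *Krt1*, the inducible chaperones were at 1187 and 748 CPM (-0.67), and in cluster 5, led by *Cst6* and *Krt79*, at 1230 and 1018 CPM (-0.27).

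**Figure D3:**
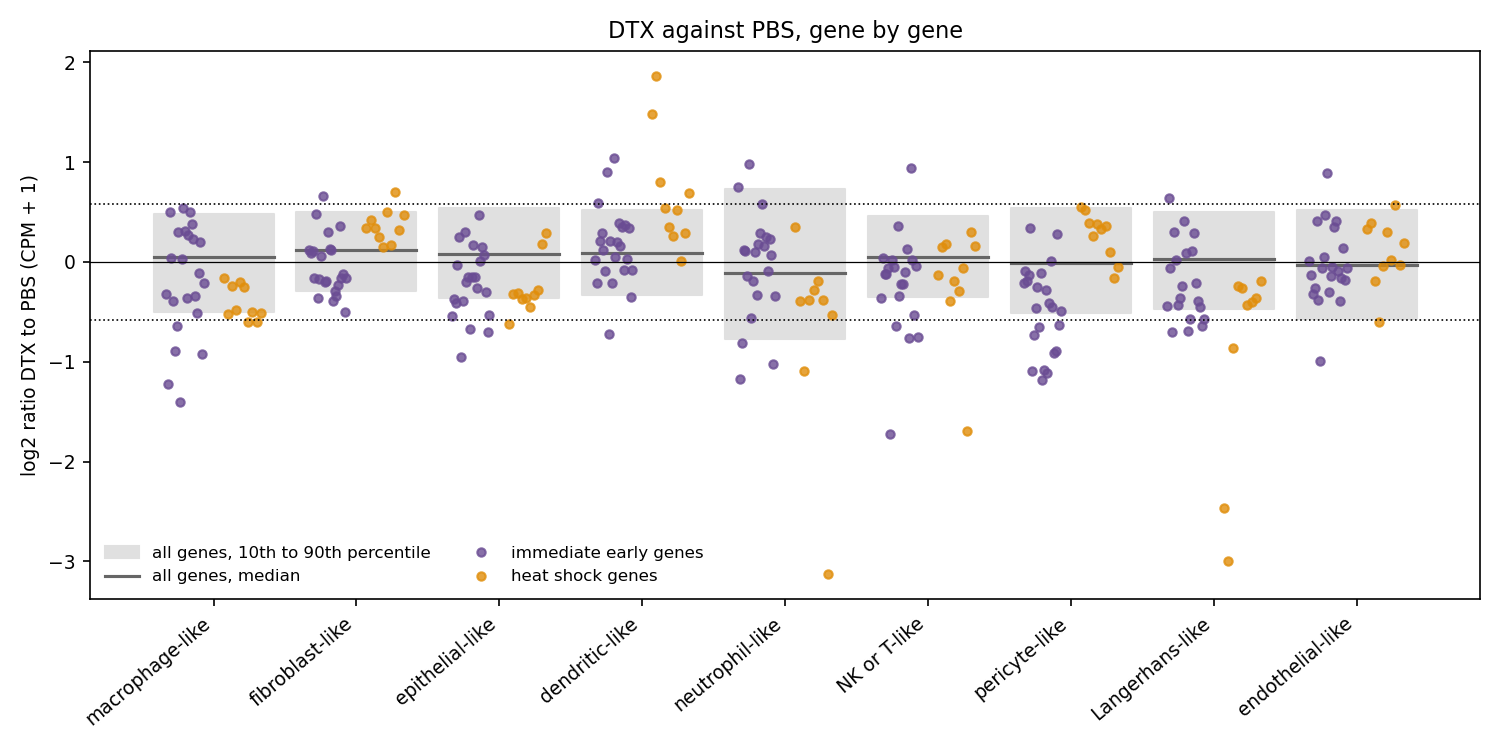
Log2 ratio of DTX to PBS (CPM + 1) of each immediate early and heat shock gene with at least 50 UMIs, by cell class, with the 10th to 90th percentile of all genes as a grey band and their median as a line. The heat shock genes of macrophage-like cells lie below 0 (median -0.49) and those of fibroblast-like and dendritic-like cells above 0 (medians 0.34 and 0.53).

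Of the 9 classes, dendritic-like cells had the largest excess of inducible chaperones in DTX. Their sum was 398 CPM in PBS and 1046 CPM in DTX (1.39, 1.31 to 1.48). *Hspa1a* had 141 and 396 CPM (1.48, 1.34 to 1.64), *Hspa1b* 115 and 423 CPM (1.87, 1.72 to 2.04), *Hsph1* 72.2 and 126 CPM (0.80), and *Hspd1* 98.7 and 160 CPM (0.69). These were 4 of 10 heat shock genes higher in DTX, beside 7.90% of 7684 genes. Among the immediate early genes, *Jun* (136 and 206 CPM, 0.59), *Egr2* (11 and 21.4 CPM, 0.90) and *Klf2* (32.6 and 68.2 CPM, 1.04) were higher, and *Egr3* (10.1 and 5.69 CPM, -0.73) was lower, beside 4.23% of genes.

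The excess was unequal within the dendritic-like class. Cluster 7, led by *Ccr7* and *Ccl22*, had 404 CPM of inducible chaperones in PBS and 722 CPM in DTX (0.84). Cluster 9, led by *Cst3* and *Acp5*, with 104 cells in PBS and 107 in DTX, had 389 and 1640 CPM (2.07, 1.94 to 2.22). Its name rests on 7 of 12 dendritic markers raised, with 1, *Cst3*, among its 10 leading genes. With at most 10% mitochondrial UMIs a cluster with *Acp5* and *Stmn1* among its leading genes (62 and 107 cells) was named myocyte. Whether it held the cells of cluster 9 was not tested. The value for the whole class was 0.82 with putative doublets kept and 0.68 with clustering on all variable genes, without a change of direction.

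Langerhans-like cells had the largest deficit of the 9 classes, from few cells. The inducible chaperones were at 755 CPM in PBS and 190 CPM in DTX (-1.99, -2.34 to -1.66). The value was -1.14 with doublets kept (126 cells in PBS and 47 in DTX) and -1.06 with at most 10% mitochondrial UMIs. Doublets were removed by a different rule in each library. *Hspa1a* had 448 UMIs in PBS and 27 in DTX (355 and 63.3 CPM, -2.47), and *Hspa1b* had 316 and 13 UMIs (251 and 30.5 CPM, -3.0). In PBS, the 10% of cells with the most of these UMIs held 92.3% of them, after thinning each cell to 2000 UMIs. The share of cells with such a UMI was 23.3% in PBS (Clopper-Pearson 95% interval 16.1% to 31.9%) and 29.7% in DTX (15.9% to 47.0%), the opposite order to the CPM, and no order was read from it. *Hsph1* (-0.87) was lower too, giving 3 of 9 heat shock genes, beside 6.63% of 3846 genes. Of 20 immediate early genes *Fosb* was higher (221 and 345 CPM, 0.64), beside 7.12%, and *Junb* (-0.70), *Ier2* (-0.69) and *Gadd45b* (-0.64) were lower.

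**Figure D4:**
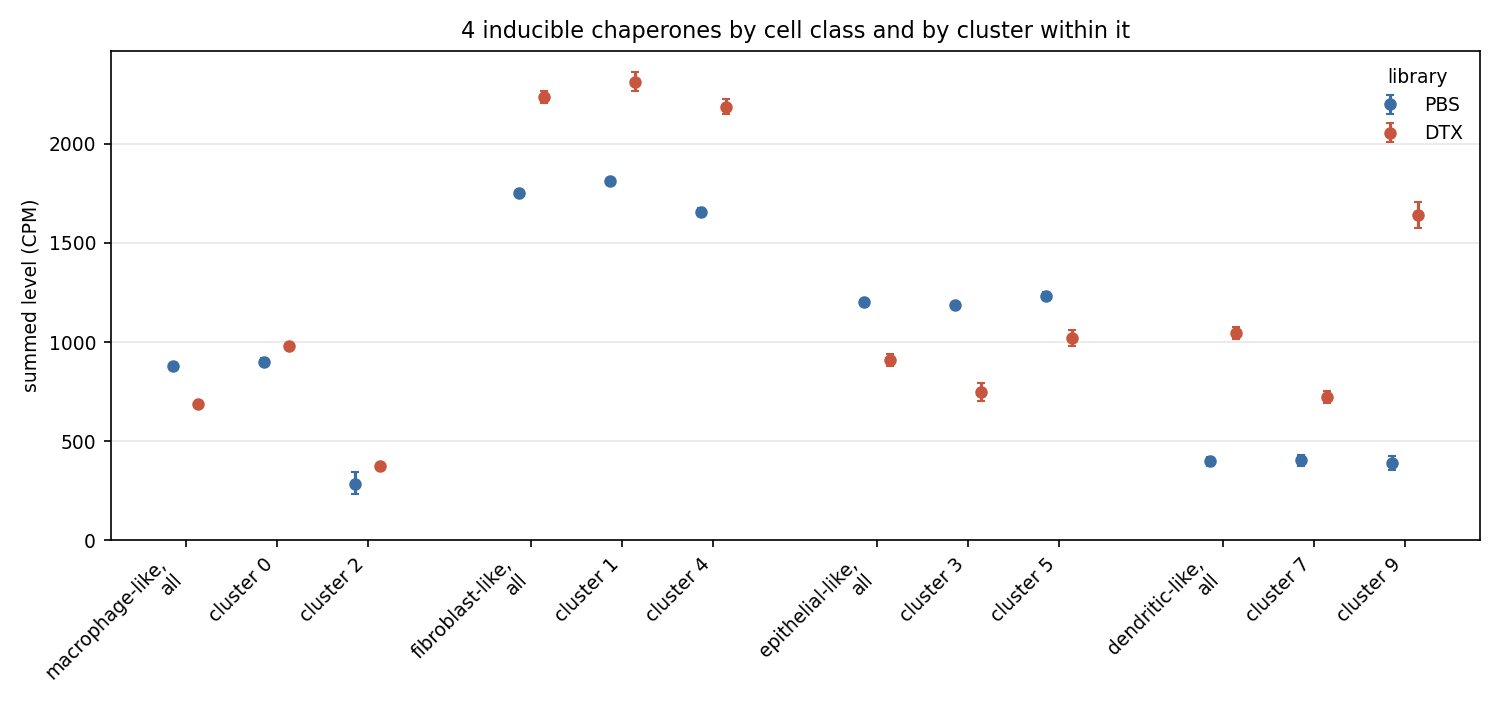
Summed level (CPM, from 0) of *Hspa1a*, *Hspa1b*, *Hsph1* and *Dnajb1* in the macrophage-like, fibroblast-like, epithelial-like and dendritic-like classes and in the clusters within each, as points for both libraries with exact Poisson 95% intervals. In macrophage-like cells the class is lower in DTX (877 and 686 CPM) while cluster 0 (902 and 982 CPM) and cluster 2 (284 and 373 CPM) are higher.

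Pericyte-like cells had the most immediate early genes lower in DTX of the 9 classes. Of 23 immediate early genes 9 were lower, beside 7.61% of 5637 genes, and none was higher, beside 8.43%. They were *Atf3*, *Egr1*, *Nr4a1*, *Klf2*, *Klf4*, *Ier2*, *Dusp2*, *Btg2* and *Gadd45b*, led by *Klf2* (129 and 56.0 CPM, -1.19) and *Ier2* (258 and 119 CPM, -1.11). The median of the 23 was -0.45, beside -0.01 over all genes. None of the 10 heat shock genes passed 1.5-fold. Their sum was 6463 CPM in PBS and 7955 CPM in DTX (0.30, 0.26 to 0.34), also under 1.5-fold, and the mitochondrial chaperones were at 588 and 545 CPM (-0.11). Cells with 6 to 10% mitochondrial UMIs, outside the filter and classed separately, were 67 in PBS and 95 in DTX. Their heat shock sum went the other way, with 8589 and 8179 CPM, as did the inducible chaperones (1517 and 1015 CPM, against 966 and 1312 CPM in the class). The immediate early sum of these cells was 7508 and 6959 CPM, against 6575 and 5264 CPM in the class.

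Neutrophil-like cells gave 3 immediate early genes higher and 3 lower of 21, beside 14.3% and 18.7% of 2824 genes. *Egr1* (282 and 558 CPM, 0.98), *Fos* (229 and 385 CPM, 0.75) and *Ier3* (1548 and 2323 CPM, 0.59) were higher, and *Fosb* (266 and 117 CPM, -1.17), *Gadd45b* (1771 and 869 CPM, -1.03) and *Jun* (638 and 363 CPM, -0.81) were lower. The median of all genes was at -0.11 here, and relative to it the immediate early sum was at 0.16 and the heat shock sum at -0.28. *Hspb1* was at 170 CPM in PBS from 32 UMIs and at 18.5 CPM in DTX from 21 UMIs (-3.13), and *Hsph1* was lower as well (-1.09). The median depth was 1223.5 UMIs per cell in PBS and 1920 in DTX, the lowest of the classes compared.

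In NK or T-like cells *Dusp2* was higher in DTX (143 and 277 CPM, 0.95), the 1 member higher, beside 5.78% of 6348 genes. *Atf3* (-1.73, from 57 and 14 UMIs), *Dusp1* (-0.76), *Ppp1r15a* (-0.75) and *Nr4a2* (-0.64) were lower, beside 3.81%, and so was *Hspb1* (50.3 and 14.8 CPM, -1.70). With at most 2000 genes per cell *Dusp2* was at -0.37 and *Ppp1r15a* at 0.49, so that both turned direction. These values rest on clusters of 61 and 20 cells in PBS and of 20 and 10 in DTX. In endothelial-like cells *Klf2* was higher (90.6 and 169 CPM, 0.89), beside 8.48% of 4990 genes, and *Egr1* (372 and 187 CPM, -0.99) and the heat shock gene *Dnajb1* (211 and 139 CPM, -0.60) were lower, beside 9.54%.

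Across the 9 classes, few members differed in 1 direction throughout. *Gadd45b* and *Ppp1r15a*, which encodes the GADD34 subunit that restores translation after stress, were below 0 in all 9 classes. Of these classes, 5 and 1 were past 1.5-fold, and the ratios nearest 0 were -0.04 and -0.06. The share of all genes below 0 in all 9 classes was not counted, so this is not read as particular to them. Read beside the shares over all genes, the share of lower immediate early genes was larger in macrophage-like, epithelial-like, NK or T-like, pericyte-like and Langerhans-like cells, it was no larger in fibroblast-like, neutrophil-like and endothelial-like cells, and it was about equal in dendritic-like cells. The summed feedback regulators (*Dusp1*, *Dusp2*, *Btg2*, *Zfp36*, *Gadd45b* and *Ppp1r15a*) were below 0 in all 9 classes, from -0.50 in pericyte-like to -0.09 in endothelial-like cells. The interval included 0 in endothelial-like (-0.21 to 0.03) and NK or T-like cells (-0.18 to 0.001). This sum contains *Gadd45b* and *Ppp1r15a* and is not separate from them, and *Zfp36* alone was above 0 in 5 classes. *Atf3* was lower in 4 classes and higher in none. By contrast, 10 members were higher in at least 1 class and lower in another, namely *Fosb*, *Jun*, *Egr1*, *Egr3*, *Klf2*, *Dusp2*, *Hspa1a*, *Hspa1b*, *Hsph1* and *Hspb1*. *Jund*, *Klf6*, *Ier5*, *Zfp36*, *Hspa8* and *Dnaja1* passed 1.5-fold in no class. The largest group, 17 members, passed it in 1 direction only. Of 286 pairs of member and class with enough UMIs, 15 were higher and 39 lower in DTX. Over all genes, the shares past 1.5-fold in both directions, in 1 or in no class, and the share of such pairs, were not counted. None of these numbers is therefore read as particular to these genes.

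RNA of other cells differed between the libraries in most classes. The summed level of 6 fibroblast genes (*Col1a1*, *Col1a2*, *Col3a1*, *Dcn*, *Sparc*, *Lum*) in macrophage-like cells was 883 CPM in PBS and 181 CPM in DTX. It was 553 and 113 CPM in dendritic-like cells, and 2526 and 416 CPM in neutrophil-like cells. All 6 were lower in DTX in each of the 9 classes, with none at 0. These classes include fibroblast-like cells (92231 and 67075 CPM), where the RNA is their own, and pericyte-like cells (24247 and 17976 CPM). The sum of 6 keratinocyte genes (*Krt5*, *Krt14*, *Krt10*, *Krt1*, *Krt17*, *Lgals7*) was 366 and 101 CPM in macrophage-like, 1330 and 268 CPM in neutrophil-like and 446 and 107 CPM in NK or T-like cells, with all 6 lower and none at 0 in these classes. *Hspb1*, *Egr1* and *Egr3* are among the members highest in epithelial-like or fibroblast-like cells, and the part of such RNA in their lower levels in DTX, for example of *Hspb1* in neutrophil-like and NK or T-like cells, was not tested. The 3 neutrophil genes (*S100a8*, *S100a9*, *Retnlg*) went the other way, with 64.1 and 91 CPM in macrophage-like and 6.74 and 66.3 CPM in fibroblast-like cells.

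UMIs of the 4 inducible chaperones were more concentrated over cells than those of the 23 immediate early genes. The sums differ in their number of genes and in level, and a thinned cell without a UMI may still express the genes. Each cell was thinned to 2000 UMIs, and shallower cells were left out (224 macrophage-like cells in PBS and 135 in DTX, 82 and 7 fibroblast-like cells). The median was 11 immediate early UMIs per macrophage-like cell in both libraries and 15 per fibroblast-like cell in both. The 10% of macrophage-like cells with the most immediate early UMIs held 22.6% of them in PBS and 23.3% in DTX. For the inducible chaperones the top 10% held 69.4% in PBS and 77.1% in DTX, and in fibroblast-like cells 60.9% and 55.0%.

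A UMI of any inducible chaperone was seen in 47.5% of thinned macrophage-like cells in PBS (45.1% to 50.01%) and in 36.9% in DTX (35.5% to 38.3%), and in 59.0% and 60.8% of fibroblast-like cells. Without thinning, the shares were 69.0% and 65.7% in macrophage-like cells and 89.3% and 91.3% in fibroblast-like cells. *Fos* was seen in 47.2% of thinned macrophage-like cells in PBS (44.8% to 49.7%) and in 36.6% in DTX (35.1% to 38.0%), and in 65.1% and 64.1% without thinning. In fibroblast-like cells *Fos* was seen in 24.3% and 27.7% after thinning, although its CPM was higher there than in macrophage-like cells, and *Egr1* in 52.8% and 50.3%. In dendritic-like cells the share with an inducible chaperone was nearly equal (37.4% and 35.9%), whereas the top 10% held 64.4% of these UMIs in PBS and 74.2% in DTX. No class is known to lack these genes, so a share from free RNA alone could not be measured.

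**Figure D5:**
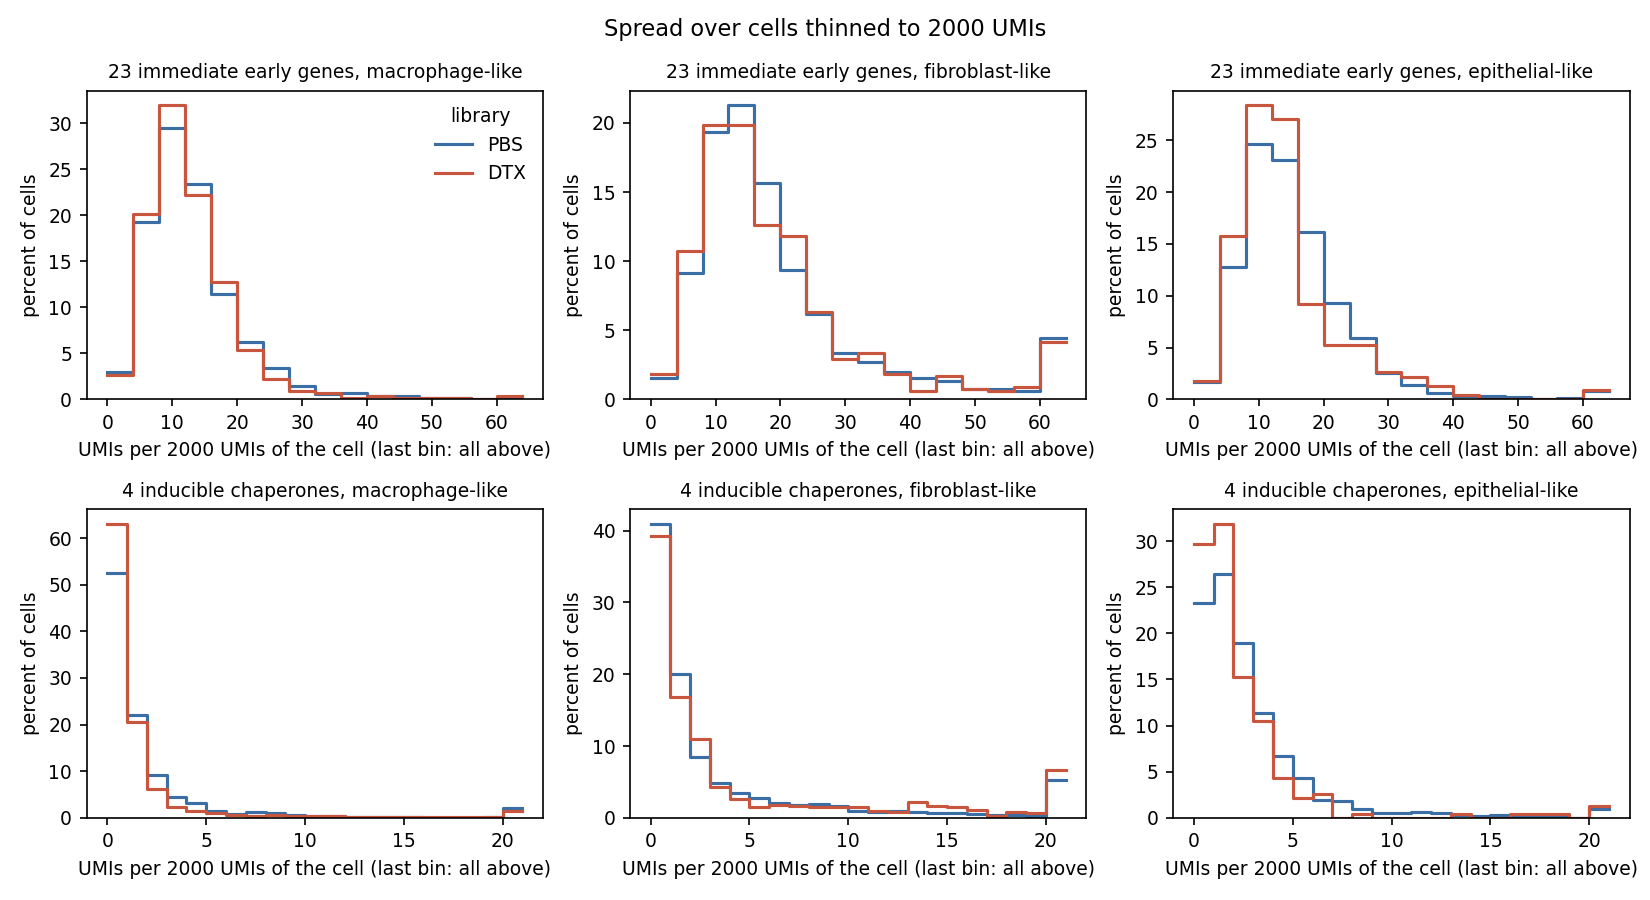
Distribution over cells (percent of cells) of UMIs of the immediate early genes and of the 4 inducible chaperones, in cells thinned to 2000 UMIs, for macrophage-like, fibroblast-like and epithelial-like cells of both libraries, with the last bin holding all cells above. The immediate early distributions of macrophage-like cells have the same median of 11 UMIs in both libraries, while most cells hold few UMIs of the inducible chaperones and a small part holds many.

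The rank correlation of both groups over cells differed by class. The Spearman rho over cells between immediate early and inducible chaperone UMIs was 0.42 in PBS and 0.46 in DTX in fibroblast-like cells, 0.45 and 0.52 in endothelial-like cells, and 0.09 and 0.08 in macrophage-like cells. Inducible and other heat shock genes went together in more classes, with 0.60 and 0.66 in fibroblast-like, 0.48 and 0.35 in macrophage-like and 0.38 and 0.51 in dendritic-like cells. These are descriptions over cells of 1 library each, which share depth and capture. No inducible chaperone UMI was left in 52.5% and 63.1% of thinned macrophage-like cells and in 41.0% and 39.2% of fibroblast-like cells, which limits the rho. The paper lists *Klf2*, *Nr4a1*, *Hspa1a* and *Dnajb1* among the top genes of 1 macrophage subcluster. A rho over the whole class does not describe such a subset, which was not looked for here.

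The level of the inducible chaperones varied with the mitochondrial share of the cells, without 1 direction over classes. Bins with at least 20 cells were compared, and those of 6 to 10% were outside the filter. The bins of 6 to 10% used classes from a separate clustering with the 10% limit, so they do not continue the same classes as the other bins. In fibroblast-like cells of PBS the level was 1790 CPM in cells with 0 to 2% mitochondrial UMIs, 1568 CPM with 2 to 4%, 2369 CPM with 4 to 6%, and 2931 CPM with 6 to 10%. In DTX the bins from 2% on had 2158, 2275 and 3758 CPM. Macrophage-like cells had 1038, 775, 1008 and 1630 CPM in PBS and 725, 703, 667 and 1274 CPM in DTX. DTX was lower in each bin, and the level was highest at 6 to 10% in both libraries. Up to 6% these bins join both clusters of the class, within each of which the level was higher in DTX. The cluster with the lower level held 73 cells in PBS and 2233 in DTX, and the bins were not split by cluster. In dendritic-like cells the bins had 537, 334, 452 and 572 CPM in PBS and 730, 606, 1461 and 2036 CPM in DTX, so that DTX was higher in each. The order went the other way in epithelial-like cells of DTX (1200, 860 and 751 CPM from 2% on), while PBS was nearly even there (1181, 1295, 1161 and 1364 CPM). NK or T-like cells of DTX also had less in each further bin (602, 436 and 206 CPM from 2% on), and those of PBS had 669, 375 and 1047 CPM. The median mitochondrial share was 3.15% in PBS and 4.02% in DTX in macrophage-like cells and 3.17% and 4.25% in fibroblast-like cells. In neutrophil-like cells of DTX, 398 cells with at most 2% had 147 CPM of inducible chaperones and 48 cells with 2 to 4% had 887 CPM, and the latter had a median of 6203 UMIs against 1843.5.

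Related genes outside the list were described in the same way. Of 20 other early response genes in macrophage-like cells 3 were higher and 1 lower in DTX, beside 6.22% and 8.03% of all genes. *Plk3*, a stress-responsive kinase (21.4 and 51.4 CPM, 1.23), and *Socs3*, a feedback inhibitor of cytokine signalling (121 and 256 CPM, 1.08), were at the top, and *Cyr61* (7.70 and 2.08 CPM, -1.50) and *Myc* (7.92 and 4.99 CPM, -0.57) at the bottom. In fibroblast-like cells none of the 20 passed 1.5-fold (7.29% of all genes were higher and 3.98% lower), with *Rhob* (0.56) and *Per1* (0.43) at the top and *Cyr61* (-0.45) and *Fosl1* (-0.34) at the bottom. Of 15 other HSF1 targets and co-chaperones none was higher and 2 were lower in macrophage-like cells, *Hspb8* (3.80 and 1.18 CPM, -1.14) and *Cryab* (8.14 and 4.16 CPM, -0.83), and 13 were below 0, with *Hspa4l* (0.44) and *Hspa4* (0.06) above it, beside 8.03% of all genes lower. In fibroblast-like cells 1 of 15 was higher, near the 7.29% of all genes, *Hspa4l* (15.1 and 25.1 CPM, 0.69), followed by *Cacybp* (0.48), and *Cryab* (-0.19) and *Hspb8* (-0.17) were at the bottom.

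Genes of the endoplasmic reticulum and integrated stress responses had a median of 0.22 in macrophage-like cells, beside 0.05 over all genes. Of 12 with enough UMIs 1 was higher, near the 6.22% of all genes, the disulfide isomerase gene *Pdia4* (41.1 and 65.9 CPM, 0.67), and none was lower, with *Xbp1* at 0.57, *Ddit3* at -0.39 and *Asns* at -0.09. In fibroblast-like cells none of 14 passed 1.5-fold, from *Pdia4* (0.57) and *Asns* (0.47) to *Hspa5* (-0.20) and *Herpud1* (-0.23). Of 8 upstream factors 1 was higher in macrophage-like cells, beside that same share, *Elk3*, a partner of SRF (66.6 and 133 CPM, 0.99), followed by *Elk1* (0.52), while *Hsf1*, the gene of the heat shock factor itself, was at -0.15 and *Crem* at -0.27. None of the 8 passed 1.5-fold in fibroblast-like cells, where *Elk3* (0.49) and *Srf* (0.40) were at the top and *Hsf2* (-0.31) and *Crem* (-0.13) at the bottom.

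The genes most like *Fos* over the 9 classes in both libraries (18 points that share libraries, 5326 genes searched, Pearson r of log2 levels) were *Cfb* (0.90), *Igf1* (0.89), *Pdpn* (0.86), *Timp2* (0.86) and *Lhfpl2* (0.84). Those most like *Hspa1a* were *Dot1l* (0.85), *Slc35f5* (0.83), *Fgfr1* (0.82), *Klf9* (0.81) and *Errfi1* (0.80). Among the members, *Hspa1a* followed *Hspa1b* with 0.91 and *Hsph1* with 0.78, and its r with *Fos* was 0.56. Transcripts of *Hspa1a* and *Hspa1b* share 58.8% and 62.3% of their 50-base words but none in the last 400 bases, where reads of this method fall.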

How the data were processed

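The authors deposited raw UMI counts per gene and cell for 2 libraries (10x 3′ v3, mm10), made with Cell Ranger 6.1.1 per the submitters' processing notes. The PBS library held 12058 cells and 105511870 UMIs and the DTX library 11031 cells and 81858751 UMIs. The paper gives these cell numbers the other way, 12058 for *Mrc1-DTR* and 11031 for control wounds after quality control. The labels were followed. The paper reports a larger share of immune cells in *Mrc1-DTR* than in control wounds, and here macrophage-like cells were 23.0% of PBS and 68.2% of DTX. They share 37 barcodes. A minimum of 500 genes and a maximum of 6% mitochondrial UMIs per cell left 8326 and 7188 cells. Scrublet (scanpy 1.11.5) called 4.59% doublets in PBS, which were removed, and 0% in DTX, where the 8% of cells scoring highest were taken out. The remaining cells had medians of 9579.5 and 7286 UMIs.

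Cells were clustered in R 4.3.3 with Seurat 5.3.0 (2000 variable genes, 30 components, resolution 0.2, no integration) without the 33 members and 57 related genes. Clusters were named from marker lists by markers among the 10 leading genes and markers raised at least 2-fold over the median cluster, a scoring rule written with clusters already seen. The members and lists were chosen with earlier results of these data known. UMIs were summed by class and library in Python 3.11.15 (numpy 2.4.6, scipy 1.17.1, pandas 2.3.3). Log2 ratios had 1 CPM added, exact intervals did not, and genes needed 50 UMIs over both libraries. Cells are not replicates, and no test was run. All members were named, and from related lists the 2 largest and 2 smallest ratios in macrophage-like and fibroblast-like cells. The genes most like *Fos* and *Hspa1a* needed 1000 UMIs in each library. Ratios and intervals were checked on simulated independent Poisson counts of 1 class. Such counts lack the clumping of UMIs over cells seen here, so the check covers counting error only. Alternatives were the doublet step, gene and mitochondrial limits, clustering with all genes or at resolution 0.5, mean over cells, centring, the CPM added, the fold, the UMI minimum and the thinning depth. The 2 macrophage-like clusters alone were added after seeing the data.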

Additional observations from a re-analysis of the deposited data

Results flagged for a closer look

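For 10 members the log2 ratio of DTX to PBS was at least 1.5-fold above 0 in one class and at least 1.5-fold below 0 in another. The share of all genes for which this held was not counted, so the 10 are listed as a description only. The classes named are those with the highest and the lowest ratio among the ratios past 1.5-fold, each condition has 1 library, and the difference between the classes was not tested.

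*Fosb* was at 0.64 in Langerhans-like and at -1.22 in macrophage-like cells. *Jun* was at 0.59 in dendritic-like and at -0.81 in neutrophil-like cells. *Egr1* was at 0.98 in neutrophil-like cells, from 53 UMIs in PBS and 632 in DTX, and at -0.99 in endothelial-like cells, from 390 and 144. *Egr3* was at 0.66 in fibroblast-like and at -1.40 in macrophage-like cells, the latter from 100 and 109 UMIs. *Klf2* was at 1.04 in dendritic-like and at -1.19 in pericyte-like cells. For *Dusp2* the values were 0.95 in NK or T-like and -0.92 in pericyte-like cells, the latter from 47 and 46 UMIs.

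Among the chaperone genes, *Hspa1a* was at 1.48 in dendritic-like and at -2.47 in Langerhans-like cells, and *Hspa1b* at 1.87 and -3.0 in the same classes. *Hsph1* was at 0.80 in dendritic-like and at -1.09 in neutrophil-like cells, the latter from 14 and 39 UMIs. *Hspb1* was at 0.70 in fibroblast-like and at -3.13 in neutrophil-like cells, the latter from 32 and 21 UMIs.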

How the results depend on the processing

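Depth limits the neutrophil-like, Langerhans-like, pericyte-like and endothelial-like classes, which had few cells or UMIs, and 1 library per condition limits every comparison. No paired analysis was possible because each condition has 1 library. Of 451 alternative values of members past 1.5-fold, 448 kept their sign and 381 stayed past 1.5-fold, and the 16 of summed levels past it did both. Changing the CPM added cannot turn a sign, so the 54 member values at 0.1 CPM and 54 at 10 CPM were bound to keep it. At most 2000 genes per cell gave values for 19 such members, of which 16 kept their sign and 9 stayed past 1.5-fold. That limit gave no value for the summed levels past 1.5-fold. The cause was not tested for any value below.

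The macrophage-like immediate early sum (-0.02) was -0.039 with doublets kept, 0.076 with at most 2000 genes per cell, -0.035 with clustering on all variable genes, -0.036 at resolution 0.5, -0.070 as a mean over cells, -0.069 when centred on the median of all genes, 0.042 in cluster 0 and 0.14 in cluster 2. Its heat shock sum (-0.33) was, for the settings after the first, 0.013, -0.31, -0.36, -0.43, -0.38, -0.067 and -0.21, and -0.29 with at most 10% mitochondrial UMIs. Its inducible chaperones (-0.35) were at -0.31 with doublets kept, 0.072 with at most 2000 genes, -0.28 with at most 10% mitochondrial UMIs, -0.28 with all variable genes, -0.57 as a mean over cells, -0.41 centred, 0.12 in cluster 0 and 0.39 in cluster 2.

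In fibroblast-like cells, doublets kept, at most 2000 genes, at most 10% mitochondrial UMIs and centring gave -0.029, -0.39, 0.0013 and -0.21 for the immediate early sum (-0.09) and 0.36, -0.61, 0.36 and 0.16 for the heat shock sum (0.28), which was 0.26 as a mean over cells. In epithelial-like cells, doublets kept, at most 10% mitochondrial UMIs and centring gave -0.056, -0.21 and -0.20 for the immediate early sum (-0.12) and -0.23, -0.36 and -0.38 for the heat shock sum (-0.31), which was -0.33 with all variable genes and -0.24 as a mean over cells. The inducible chaperones of dendritic-like cells (1.39) were at 0.82 with doublets kept, 1.02 with at most 10% mitochondrial UMIs, 0.68 with all variable genes, 0.64 at resolution 0.5, where the class took up further cells, 1.02 as a mean over cells and 1.30 centred. Those of Langerhans-like cells (-1.99) were at -1.14 with doublets kept, -1.06 with at most 10% mitochondrial UMIs and -2.38 as a mean over cells.

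Counts of members moved as follows. Apart from the macrophage-like clusters alone, the share of all genes was not counted under these settings. No count here is therefore read as a result about the members. In macrophage-like cells, higher immediate early members (0) numbered 1 with at most 2000 genes, 1 in cluster 0 and 3 in cluster 2, and lower ones (5) numbered 2 with at most 2000 genes and 2 at a 2-fold threshold. Higher heat shock members (0) numbered 2 in cluster 2. Lower heat shock members (2) numbered 1 with doublets kept, at most 2000 genes, all variable genes or 10 CPM added, 0 with at most 10% mitochondrial UMIs, at 2-fold or in cluster 0, and 5 as a mean over cells. In fibroblast-like cells, higher immediate early members (1) numbered 0 with doublets kept, centred, with 10 CPM added or at 2-fold, and 2 with at most 2000 genes or at most 10% mitochondrial UMIs, and lower ones (0) numbered 8 with at most 2000 genes and 1 centred. Higher heat shock members (1) numbered 2 with doublets kept, 4 with at most 10% mitochondrial UMIs and 0 with at most 2000 genes, centred or at 2-fold, and lower ones (0) numbered 4 with at most 2000 genes.

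Members above the other classes in fibroblast-like cells were 5 immediate early genes (9) and 2 heat shock genes (5) with at most 2000 genes, and 3 heat shock genes with doublets kept. In neutrophil-like cells they were 4 immediate early genes (7) with at most 2000 genes and 11 at a 1.5-fold threshold. With at most 2000 genes only macrophage-like, fibroblast-like, neutrophil-like and NK or T-like cells were compared. The median of the other classes was therefore not that of the main counts. The share of all genes was not counted under these settings either. The share of macrophage-like cells with a *Fos* UMI was 28.4% in PBS and 23.6% in DTX at 1000 UMIs, and 65.1% and 64.1% without thinning.

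With at most 2000 genes per cell, 3 members turned direction: *Hspb1* in fibroblast-like cells (-0.090), *Dusp2* in NK or T-like cells (-0.37) and *Ppp1r15a* in NK or T-like cells (0.49). Under that limit the epithelial-like, dendritic-like and Langerhans-like classes had under 20 cells in DTX and gave no value. The macrophage-like class kept only the cluster led by *C1qa*, and the fibroblast-like class kept 534 cells in PBS and 62 in DTX.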
